A study of Mus musculus with 11 samples.

Results

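A set of 8 homeobox genes that pattern the limb bud and the embryonic face was followed across β-actin genotypes in cultured mouse fibroblasts: Alx1, Alx4, Prrx1, Prrx2, Shox2, Msx1, Msx2 and En1. They were chosen by name, with earlier results of these data known, though the rule itself uses no measured value. They are 8 of the 46469 gene symbols in the deposited tables. Every one was found, each at a single locus. Of the 8, 6 reached the level needed for testing, 1 FPKM or more, after scaling, in 3 or more libraries. Alx4 and Msx1 stayed under 1 FPKM in every library and are given by their values. FPKM counts fragments per length of transcript and per size of library, so that levels may be compared between genes.

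RNA was sequenced from embryonic fibroblasts of BALB/c mice, taken at 10.5 days of development, in 3 genotypes of Actb, the gene for cytoplasmic β-actin. WT (Actb +/+) had 4 libraries, Het (Actb +/-) had 4, and KO (Actb -/-) had 3, numbered 1, 3 and 4, after the submitters dropped a further one on quality. All cells grew in the same serum medium, and the labels name no further allele or treatment. How the Actb alleles were made is not given in the sources used here. The study's design text calls the replicates biological, but nothing ties a library to an embryo or a culture, so p-values reflect only how far these libraries spread, which may be technical. Means are given ± SD over the libraries of a group (n = 4 for WT and Het, n = 3 for KO).

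Homeobox genes encode transcription factors that hold DNA with the homeodomain, a fold whose recognition helix lies in the major groove. In the limb bud and the facial prominences, members of the Prrx, Alx, Shox and Msx families are active in mesenchyme, the loose tissue that yields cartilage, bone and connective tissue. Msx genes are well-known targets of bone morphogenetic protein (BMP) signals, and En1 marks the ventral ectoderm of the limb bud and parts of the dermis and midbrain.

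The 8 genes share the homeobox, and for 7 of them the stretch that codes for the recognition helix is shown, because similar genes can share sequencing reads there. The letters are the coding strand of the spliced GENCODE M21 transcript, 42 bases each, and the 18 capitals mark the codons at the core of the helix.
Alx1: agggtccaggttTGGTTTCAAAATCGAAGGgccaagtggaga
Alx4: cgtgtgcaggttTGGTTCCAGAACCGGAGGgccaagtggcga
Shox2: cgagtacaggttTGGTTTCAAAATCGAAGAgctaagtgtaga
Prrx1: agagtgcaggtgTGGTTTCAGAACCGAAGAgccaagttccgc
Prrx2: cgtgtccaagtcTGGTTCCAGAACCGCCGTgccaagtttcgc
Msx2: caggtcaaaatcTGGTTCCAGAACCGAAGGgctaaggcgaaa
En1: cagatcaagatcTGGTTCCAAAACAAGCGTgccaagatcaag
On GRCm38 these bases lie in coding exons. Those of Msx2 (chr13:53468379-53468420, minus strand) and En1 (chr1:120607046-120607087, plus strand) each fall within exon 2 of 2. Those of the other 5 genes are split by an intron. Over the 180 bases of the homeobox, Prrx1 and Prrx2 had 78.9% of bases in common, and Alx1 and Alx4 76.7%. Even so, the longest run of identical bases between the transcripts was 19 bases in both pairs. Prrx1 and Msx2 shared a run of 45 bases. How the deposited estimates divided reads that match more than 1 gene is not given in the sources used here.

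Actb, the targeted gene, averaged 1325 ± 199.6 FPKM in WT, 837 ± 24.0 in Het and 45.8 ± 1.27 in KO. Sequencing depth, estimated from the steps between low FPKM values, ranged from 61.8% (WT 3) to 124% (WT 4) of that of WT 1. Of 10 fibroblast markers, Lum was under 1 FPKM in every library, and Vim was the highest. The summed level of the 10 was 1167 to 1747 FPKM in WT, 1685 to 2003 in Het and 2792 to 3384 in KO. Of the markers of other cells, all 8 endothelial markers were under 1 FPKM in every library, as were 11 of 14 epithelial, 7 of 12 neural, 7 of 8 neural crest, 7 of 8 macrophage and blood, 7 of 10 skeletal muscle and 9 of 10 cartilage and bone markers. Sox10, Ptprc, Myod1 and Myog were listed at 0 in all 11 libraries. Other markers were expressed: the 12 neural markers summed to 133 to 143 FPKM in WT, 98.8 to 103 in Het and 120 to 124 in KO, most of it Nes, which averaged 115, 57.9 and 95.2 FPKM. Xist, the RNA of the silenced X chromosome, averaged 48.9 ± 3.45 FPKM in Het against 0.0503 ± 0.0105 in WT and 0.0449 ± 0.0109 in KO. The Y-linked genes Kdm5d, Uty, Ddx3y and Eif2s3y were at most 0.269 FPKM in any library. Xist levels and genotype cannot be told apart for anything that sets Het off from the other groups.

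Against WT, 5 of the 6 tested members rose in KO and no tested member fell. The 5 were Alx1, Msx2, Prrx1, Shox2 and En1. The comparison of KO with WT called 23.3% of all 14948 tested genes higher and 23.8% lower (limma, Benjamini-Hochberg adjusted p under 0.05). In Het the same 5 rose and no tested member fell, where 21.7% of all tested genes were called higher and 22.1% lower. KO and Het share the WT libraries, so these counts are not independent. Alx4, left out of them by the level filter, was lower than WT in KO and in Het in a fit with no filter. Alx1 passed the level filter only through its 3 KO libraries, so that it had to differ. In bulk RNA, fewer cells that express a gene and less of its RNA per cell cannot be told apart. The direct comparison of KO with Het separated the genes into those higher in KO, Alx1 and Msx2, and those lower in KO, Prrx1, Shox2 and En1. Among all tested genes, 22.0% were called higher and 22.2% lower in KO than in Het. The median log2 difference of the 6 tested members from WT was 1.12 in KO and 1.88 in Het, beside 0.01 in both comparisons over all tested genes.

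**Figure D1:**
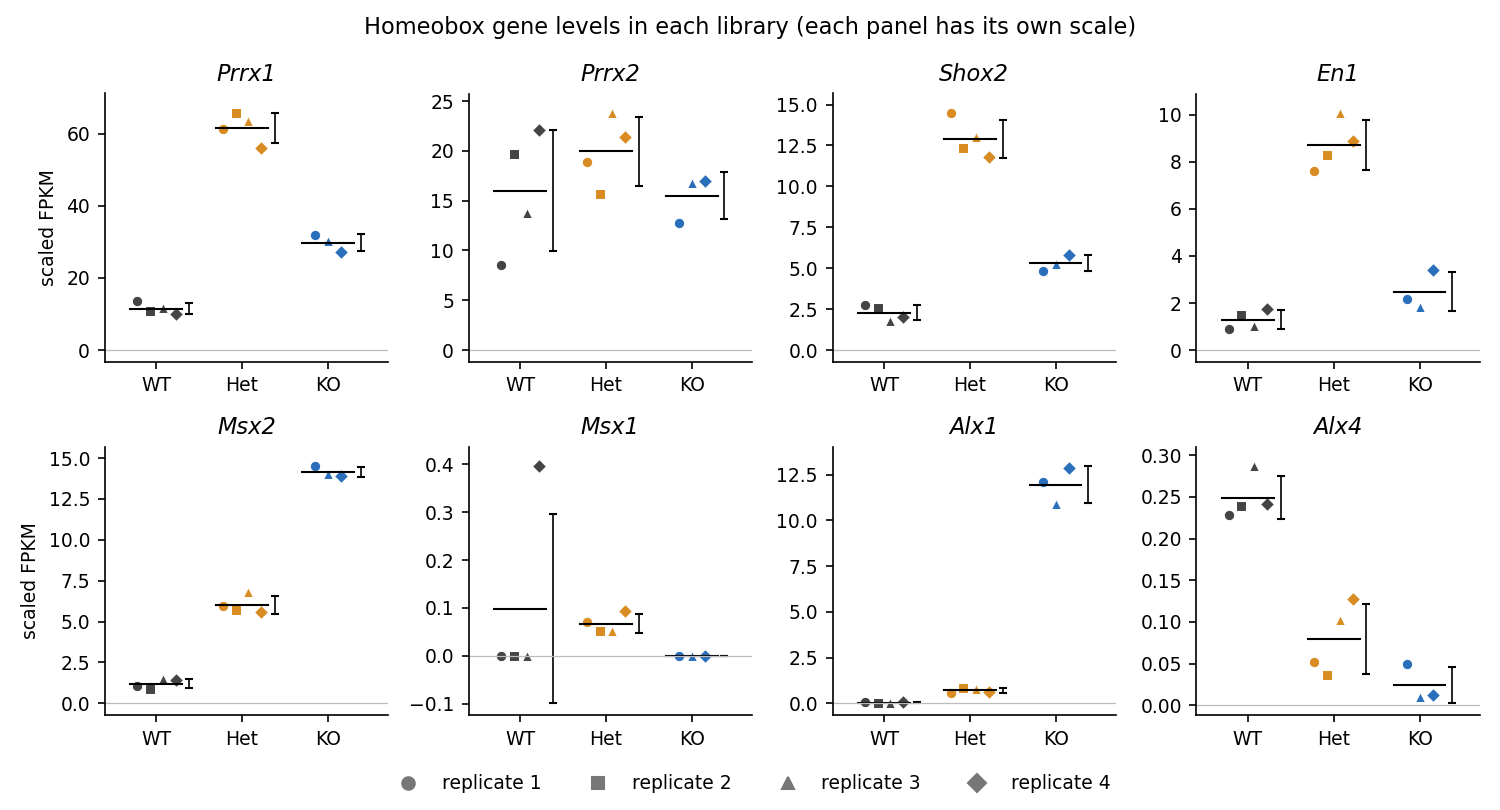
Scaled FPKM of the 8 homeobox genes in each of the 11 libraries, by genotype, with the group mean (line) and SD (bar, which can reach below 0), each panel on its own linear scale and with a marker shape for the replicate number. Prrx1, Shox2 and En1 are highest in the 4 Het libraries, Msx2 and Alx1 in the 3 KO libraries, and the Prrx2 groups overlap.

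Among the paired-related factors, Prrx1 (gene2061, chr1:163245119-163313705), a marker and regulator of limb and craniofacial mesenchyme, was the most abundant member in Het and KO. It measured 13.7, 10.8, 11.5 and 9.94 FPKM in WT 1 to 4, 61.2, 65.6, 63.5 and 56.0 in Het 1 to 4, and 31.8, 30.1 and 27.2 in KO 1, 3 and 4. All 3 groups were apart, in the order WT, KO, Het. The group means of 11.5 ± 1.60, 61.6 ± 4.12 and 29.7 ± 2.33 put Het 5.35-fold and KO 2.58-fold above WT. On the log2(FPKM + 1) scale, Prrx1 rose by 2.33 (SE 0.09, adjusted p = 1.9e-08) in Het and by 1.30 (SE 0.10, adjusted p = 1.7e-06) in KO, and KO was below Het (-1.03, adjusted p = 1.2e-05).

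Its paralog Prrx2 (gene3330, chr2:30845064-30881251), which acts partly redundantly with Prrx1 in limb and jaw, did not pass the threshold in any comparison. Prrx2 measured 8.55, 19.7, 13.7 and 22.1 FPKM in WT 1 to 4, 18.9, 15.7, 23.8 and 21.4 in Het, and 12.8, 16.8 and 17.0 in KO. The groups overlapped, and the WT libraries alone covered most of the range. Differences of 0.36 in Het (95% interval -0.18 to 0.91, adjusted p = 0.261) and 0.025 in KO (-0.56 to 0.61, adjusted p = 0.949) did not pass the threshold. The interval of the Het difference still includes a change of close to 0.9 on the log2 scale.

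The WT spread of Prrx2 went with the GC content of its transcript. At 61.5% GC, Prrx2 sat at percentile 98.7 of the tested genes. In the tenth of tested genes with the highest GC, the median log2 deviation from the group mean was -0.39 in WT 1, -0.23 in WT 3, 0.12 in WT 2 and 0.51 in WT 4, the order in which Prrx2 was measured. In a step chosen after seeing the data, the trend with GC content was taken out of every library. The deviations used for this step were from the mean of all 11 libraries, not from the group mean. It therefore also takes out differences between genotypes that go with GC content. After it, Prrx2 measured 13.1, 19.9, 18.6 and 16.0 in WT, 19.2, 18.1, 22.1 and 18.5 in Het and 13.6, 15.5 and 12.8 in KO. Prrx2 was then lower in KO than in Het (-0.45, adjusted p = 0.00883, against -0.34 and adjusted p = 0.334 without this step), and its difference from WT was -0.25 in KO (adjusted p = 0.109) and 0.21 in Het (adjusted p = 0.15). With or without the step, neither difference of Prrx2 from WT passed the threshold.

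**Figure D2:**
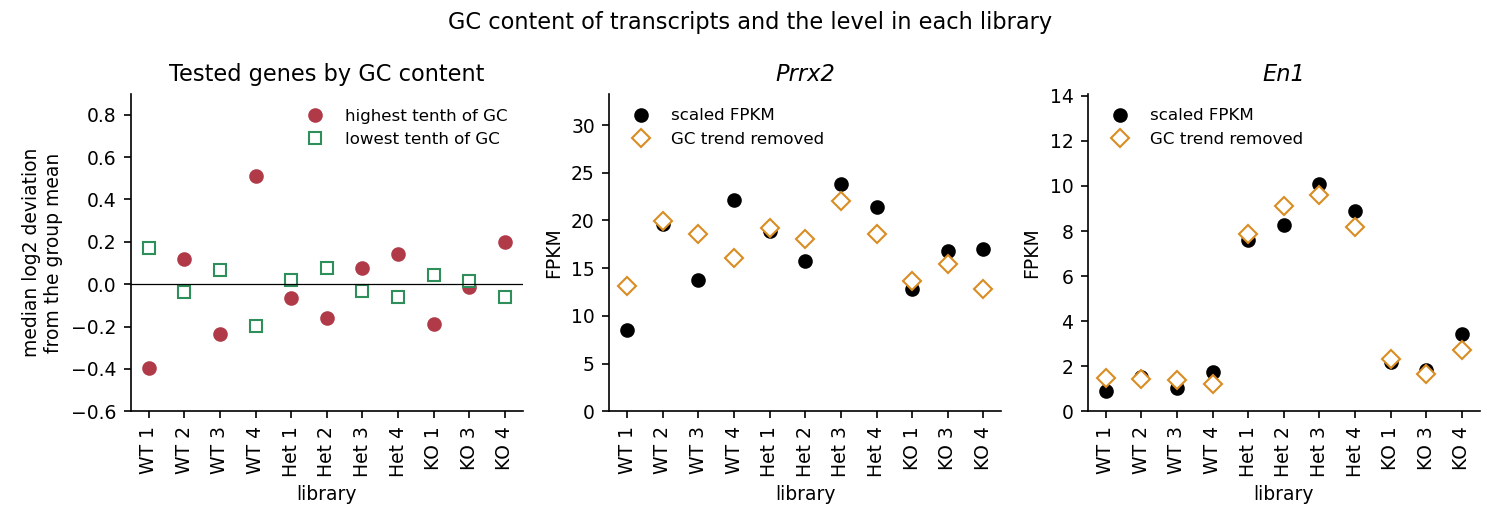
Left, the median log2 deviation from the group mean in each library for the tenth of tested genes with the highest GC (filled circles) and with the lowest GC (open squares); middle and right, Prrx2 and En1 in each library as scaled FPKM (filled circles) and after removal of the GC trend (open diamonds), on linear axes from 0. High-GC genes run from -0.39 in WT 1 to 0.51 in WT 4, and the WT libraries of both genes lie closer together after the removal.

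As a share of the summed Prrx1 and Prrx2 FPKM, Prrx1 made up 43.4 ± 13.5% in WT, 75.6 ± 3.88% in Het and 65.7 ± 5.03% in KO. The WT libraries ran from 31.0% to 61.5% and the KO libraries from 61.6% to 71.3%, so that WT 1 all but met the lowest KO library. The Prrx1 transcript has 43.4% GC against 61.5% for Prrx2, and the WT shares had the reverse order of the high-GC deviations. The GC trend was not taken out of these shares. Het libraries ran from 72.4% to 80.7%. A difference in response between the paralogs was not tested.

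Shox2 (gene6986, chr3:66971723-66981771), which controls growth of the proximal limb skeleton and palate development, followed the order of Prrx1 at a lower level. It measured 2.78, 2.55, 1.80 and 2.01 FPKM in WT, 14.5, 12.3, 13.0 and 11.8 in Het, and 4.83, 5.25 and 5.81 in KO, with no overlap between groups. Het averaged 5.65-fold and KO 2.32-fold the WT mean. Shox2 rose by 2.09 (SE 0.11, adjusted p = 1.37e-07) in Het and by 0.95 (SE 0.12, adjusted p = 6.01e-05) in KO, and was lower in KO than in Het (-1.14, adjusted p = 1.63e-05).

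En1 (gene1489, chr1:120602391-120607991), the engrailed factor of ventral limb ectoderm and of a dermal fibroblast lineage, was also highest in Het. It measured 0.886, 1.51, 1.02 and 1.76 FPKM in WT, 7.61, 8.29, 10.1 and 8.90 in Het, and 2.18, 1.84 and 3.41 in KO. Het stood far above both other groups, while the lowest KO library, KO 3, lay just above the highest WT library, WT 4. En1 rose by 2.09 in Het (SE 0.16, adjusted p = 2.49e-06), was lower in KO than in Het (-1.50, adjusted p = 4.37e-05), and rose by 0.59 in KO (SE 0.17, adjusted p = 0.0163). Without KO 4 the last of these was 0.41, with an adjusted p of 0.0761. The En1 transcript has 57.5% GC (percentile 89.6), and its 4 WT libraries had the same order as the high-GC genes. With the GC trend removed they measured 1.49, 1.44, 1.39 and 1.20, and the KO difference was 0.44 (adjusted p = 0.00574).

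Of the epithelial markers, Epcam, Cdh1 and Trp63 were under 1 FPKM in every library, but Krt18, a keratin of simple epithelia, rose in Het (1.46, adjusted p = 1.64e-05) and fell in KO (-1.15, adjusted p = 0.000125), averaging 1.70 FPKM in WT, 6.53 in Het and 0.215 in KO. Krt14 fell in both, from 2.57 FPKM in WT to 0.313 in Het and 0.035 in KO. Krt14 passed the level filter only through its WT libraries, so that its fall is given as a value only. The summed level of the 14 epithelial markers was 28.0 to 40.1 FPKM in Het, 30.4 to 75.4 in WT and 29.7 to 47.1 in KO, most of it Krt19. Of the other markers that were highest in Het, Pdgfra of the fibroblast list averaged 0.212 FPKM in WT, 4.33 in Het and 0.964 in KO, Col1a2 6.86, 193 and 11.5, and Pax3 of the muscle list 4.44, 11.8 and 3.55. The neural markers Tubb3 (10.9, 24.6 and 13.6 FPKM in WT, Het and KO) and Stmn2 (7.88, 16.3 and 1.95) were also highest in Het. The part of these markers in the levels of Prrx1, Shox2 and En1 was not tested.

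The sequences just upstream of Shox2 and En1, 2 of the genes that were highest in Het, are shown from the RefSeq promoter table of GRCm38.p6, limited to bases outside the deposited locus and outside GENCODE exons. Capitals mark matches on either strand to the TATA motif TATAAA, to the CCAAT motif, to GGGCGG, known as a GC box, and to the core site of many homeodomains, TAATTA. The first is chr3:66981772-66982021 on the minus strand and the second chr1:120602237-120602390 on the plus strand.
Shox2 upstream: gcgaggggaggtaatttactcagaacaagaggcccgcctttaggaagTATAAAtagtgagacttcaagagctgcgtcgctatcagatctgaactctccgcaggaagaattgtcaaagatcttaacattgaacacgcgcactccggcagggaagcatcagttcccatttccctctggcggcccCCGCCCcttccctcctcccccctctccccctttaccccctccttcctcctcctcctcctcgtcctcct
En1 upstream: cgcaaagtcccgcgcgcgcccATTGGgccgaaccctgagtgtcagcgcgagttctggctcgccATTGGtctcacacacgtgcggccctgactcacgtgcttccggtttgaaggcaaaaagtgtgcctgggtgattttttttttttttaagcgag
The 250 bases of Shox2 held 1 TATAAA, found in 12.4% of the 32851 promoters of the table over the 250 bases before the start, and 1 GGGCGG, found in 32.7%. The 154 bases of En1 held 2 matches to CCAAT, which 33.8% of promoters hold. TAATTA, in 4.84% of promoters, was in neither window, but was found 1 time in the 195 upstream bases of Prrx1, the other gene highest in Het, and 1 time in the 250 of Msx2. Those windows overlap GENCODE exons and are not printed. These are matches of letters only. Of the 8 genes, Alx1 and Alx4 had no entry in that table.

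The muscle segment gene Msx2 (gene32706, chr13:53466881-53472780), a repressor-type homeodomain factor of skull, limb and skin appendage development, rose stepwise from WT to Het to KO. It measured 1.05, 0.901, 1.47 and 1.42 FPKM in WT, 5.94, 5.73, 6.80 and 5.59 in Het, and 14.5, 14.0 and 13.9 in KO, with wide gaps between all 3 groups. Means of 1.21 ± 0.278, 6.01 ± 0.543 and 14.1 ± 0.305 put Het 4.97-fold and KO 11.7-fold above WT. Msx2 rose by 1.67 in Het (SE 0.10, adjusted p = 2.98e-07) and by 2.79 in KO (SE 0.10, adjusted p = 6.82e-09), and KO was above Het by 1.11 (adjusted p = 8.85e-06).

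Msx1 (gene11795, chr5:37820491-37824585), the paralog needed for palate and tooth development, was nearly silent. It was listed at 0 in WT 1, 2 and 3 and in all 3 KO libraries, measured 0.395 FPKM in WT 4, and 0.0703, 0.0517, 0.0523 and 0.0933 in the Het libraries. At these levels it was not tested across genes, and exact permutation tests gave p = 1 for Het against WT (two-sided, n = 4 and 4, smallest possible 0.0286) and for KO against WT. For KO against Het the exact permutation p was 0.0571, the smallest that 3 against 4 libraries allow, since every Het library lay above the KO libraries at 0.

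Alx1 (gene26282, chr10:103007847-103029452), an aristaless-like factor of frontonasal mesenchyme, was close to 0 in WT and a leading member in KO. It measured 0.0433, 0, 0 and 0.0664 FPKM in WT, 0.584, 0.821, 0.790 and 0.599 in Het, and 12.1, 10.9 and 12.9 in KO. The KO mean was 17.1 times the Het mean. No fold against WT is given, since Alx1 was listed at 0 in 2 of the WT libraries. On the log2(FPKM + 1) scale Alx1 in KO was above WT by 3.65 (SE 0.09) and above Het by 2.93. Both are given as values only, since only the 3 KO libraries brought Alx1 past the level filter. In Het it rose by 0.72 (SE 0.08, adjusted p = 3.9e-05), at levels under 1 FPKM. With a pseudocount of 0.1 in place of 1, the differences from WT were 6.60 in KO and 2.67 in Het.

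Alx4 (gene4520, chr2:93642434-93681341), which limits anterior outgrowth of the limb and shapes the skull, had the opposite order at a far lower level. It measured 0.229, 0.240, 0.287 and 0.242 FPKM in WT, 0.0520, 0.0367, 0.102 and 0.127 in Het, and 0.0491, 0.0103 and 0.0129 in KO. All WT libraries lay above all others, while Het and KO overlapped. An exact permutation test of log2(FPKM + 1) gave p = 0.0286 for Het against WT and p = 0.0571 for KO against WT (two-sided, n = 4 and 4, and 4 and 3), in each case the smallest value that the design can reach. In a fit with no filter on level, the differences were -0.21 in Het (adjusted p = 0.000599) and -0.29 in KO (adjusted p = 0.000114). The deposited intervals of single Alx4 estimates had half-widths of at least 53.3% of the value.

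Cartilage markers were read beside Alx1 and Msx2, the members highest in KO. Col2a1, the collagen of cartilage, averaged 3.20 FPKM in WT, 0.417 in Het and 25.6 in KO, while the other 9 of the 10 cartilage and bone markers, Acan, Sox5, Sp7 and Alpl among them, stayed under 1 FPKM in every library. The neural marker Map2 was also highest in KO, at 3.26 FPKM in WT, 0.596 in Het and 10.6 in KO. Thy1 of the fibroblast list averaged 0.0248, 0.667 and 2.21 FPKM in WT, Het and KO. Their part in the levels of Alx1 and Msx2 was not tested.

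**Figure D3:**
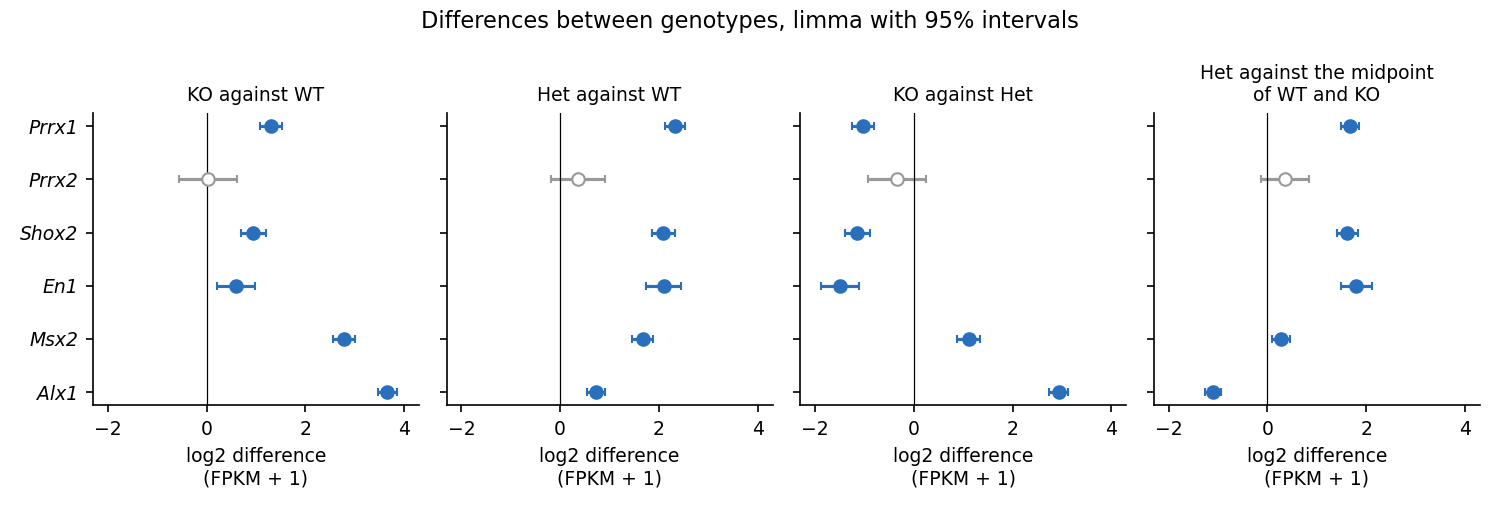
Log2(FPKM + 1) differences of the 6 tested genes in 4 comparisons, with 95% intervals from limma; filled points passed an adjusted p of 0.05 and open points did not. Prrx1, Shox2 and En1 lie below 0 in KO against Het and Msx2 and Alx1 above it, while the Prrx2 intervals include 0 throughout. Alx1 passed the level filter only through its KO libraries, so that its points in comparisons with KO are values only.

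To place Het between the other groups, its level was compared with the midpoint of WT and KO on the log2 scale. Prrx1 (1.68, adjusted p = 7.75e-08), Shox2 (1.62, adjusted p = 3.34e-07) and En1 (1.80, adjusted p = 3.15e-06) lay far above the midpoint. Msx2 lay slightly above it (0.28, adjusted p = 0.0212), a call lost without Het 3 (0.23, adjusted p = 0.0769). Thus 4 of the 6 tested members were called above the midpoint, beside 21.3% of all tested genes above it and 22.8% below. Alx1 lay below the midpoint (-1.10, or -0.63 with a pseudocount of 0.1), but the KO libraries that brought it past the filter also set its midpoint, so that this is given as a value only. Prrx2 lay 0.35 above it without passing (adjusted p = 0.221), and passed once the GC trend was removed (0.33, adjusted p = 0.017).

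The 8 genes together summed to 32.7 ± 4.99 FPKM in WT, 110 ± 5.73 in Het and 79.1 ± 0.998 in KO, with no overlap between groups. Alx1 and Msx2 made up 3.84 ± 0.989% of the sum in WT, 6.09 ± 0.228% in Het and 33.0 ± 1.27% in KO. Prrx2 made up 47.7 ± 12.0% in WT, 18.1 ± 2.80% in Het and 19.6 ± 2.81% in KO. In WT the order of levels was Prrx2 and Prrx1, whose ranges overlapped, then Shox2, then En1 and Msx2, whose ranges overlapped, with Alx4, Msx1 and Alx1 last, of which Msx1 overlapped both others. The order in Het was Prrx1, Prrx2, Shox2, En1, Msx2 and Alx1, each range apart from the next. In KO it was Prrx1, then Prrx2 and Msx2 with overlapping ranges, then Alx1, Shox2 and En1.

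**Figure D4:**
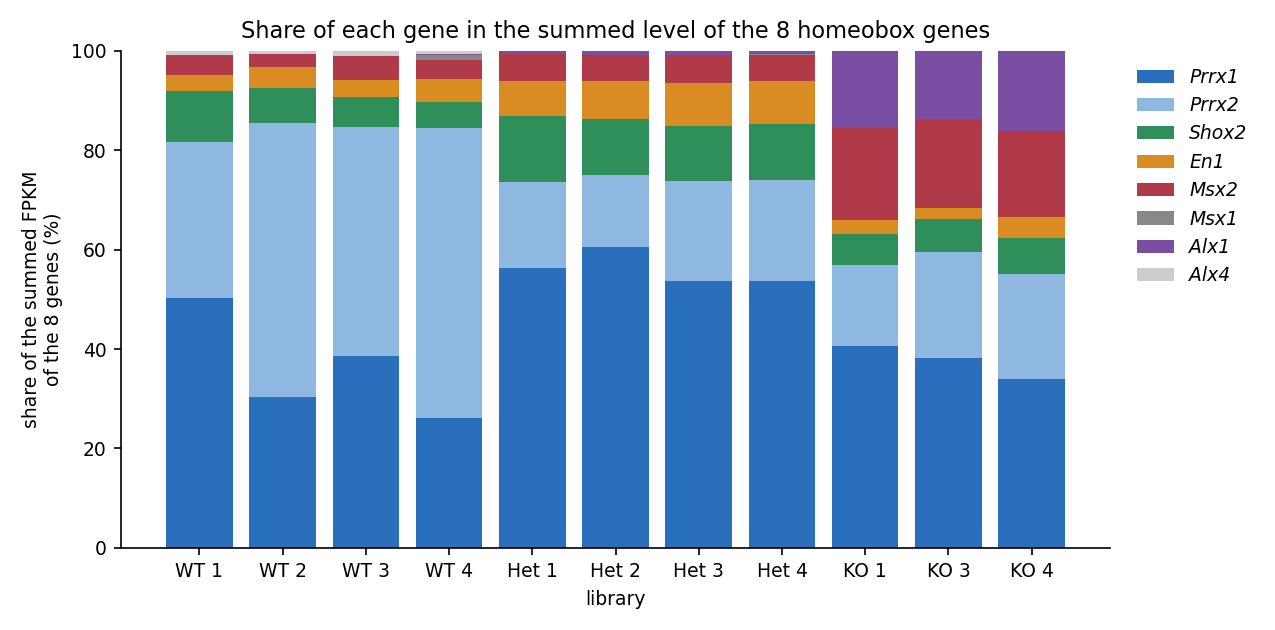
Share of each gene in the summed FPKM of the 8 homeobox genes, as stacked bars from 0 to 100% for each of the 11 libraries. Alx1 and Msx2 together average 3.84% in WT, 6.09% in Het and 33.0% in KO, and Prrx1 is the largest share in all Het and KO libraries.

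Beside the counts of this and the following lists, 23.3% of all tested genes were called higher and 23.8% lower in KO against WT. In Het against WT these shares were 21.7% and 22.1%. The counts were not tested against these shares. Of 28 other homeobox genes of limb and face, 10 were tested. In KO 4 rose and 2 fell, with a median difference of 0.19, and in Het 5 rose and 1 fell, with a median of 0.27. Lhx9, a LIM-homeodomain factor of limb outgrowth, rose in KO (1.70) and measured 0.854 FPKM in WT, 0.963 in Het and 5.06 in KO. Without its KO libraries Lhx9 would not have passed the level filter, so that its rise is given as a value only. Dlx4 fell in KO (-0.97) and Dlx1 rose in Het (0.89). Dlx4 passed the level filter only through its WT libraries, so that its fall is given as a value only. The same holds for the rise of Dlx1, which would not have passed without its Het libraries. En2, the paralog of En1, averaged 0.144 FPKM in WT and 0.631 in Het, and was listed at 0 in KO.

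All 11 TALE genes were tested. They encode Pbx, Meis, Pknox and Tgif proteins, several of which bind DNA together with other homeodomain factors. Here 3 rose and 2 fell in KO, with a median of -0.21, and 4 rose and none fell in Het, with a median of 0.17. Meis1 rose in KO (1.13), Tgif1 rose in KO (1.27) and Pknox2 fell in KO (-1.06). Meis2 rose in Het (1.33) and measured 4.94 FPKM in WT, 13.9 in Het and 4.10 in KO.

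Among 24 other regulators of limb and face mesenchyme, 11 were tested; 4 rose and 2 fell in KO (median 0.09), and 4 rose and 5 fell in Het (median -0.19). Osr1, a factor of connective tissue and palate, rose in KO (1.65), as did Foxc2 (0.83) and the bone factor Runx2 (0.52), while Tbx15 fell (-0.55). Runx2 also rose in Het (0.50) and Tbx15 also fell there (-0.54), and neither differed between KO and Het past the threshold. In Het, Foxd1 fell (-2.16), from 10.97 FPKM in WT to 1.68, and the cartilage regulator Sox9 rose (1.07). Tbx4, Tbx5 and Hand2, which mark the limb fields, were at most 0.132 FPKM in any library.

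BMP signals, which act upstream of Msx genes in the embryo, were read by list, beside the shares of all tested genes given above. Of 7 ligands, 2 were tested. Bmp2 fell in KO (-1.79), from 3.64 FPKM in WT to 0.344, and rose in Het (0.44). Bmp4 rose in Het (0.49) and averaged 6.67 FPKM in WT and 8.16 in KO (0.27, adjusted p = 0.17). Of 10 receptors and SMADs, the signal carriers, 8 were tested, of which 3 rose and 3 fell in KO, and 2 rose and 1 fell in Het. The type I receptor Acvr1 rose in KO (1.16), whereas Bmpr1a fell (-0.63). Smad1 (0.44) and Smad4 (0.41) rose in KO, and Smad5 fell in Het (-0.58). Smad4 also rose in Het (0.40), and Smad5 also fell in KO (-0.27).

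Of 9 BMP antagonists and inhibitors, 7 were tested, of which 4 rose and 1 fell in KO, and 2 rose and 1 fell in Het. The secreted antagonist Grem1 rose in both genotypes (2.24 in KO and 2.31 in Het), from 5.11 FPKM in WT to 28.0 and 29.1. Fst, for follistatin, rose in KO (1.15) and fell in Het (-0.47), Smad7 rose in KO (0.76), and Nog, for noggin, fell in KO (-0.93). Without its WT libraries Nog would not have passed the level filter, so that its fall is given as a value only. All 4 Id genes, which respond to BMP signals in many cells, were tested: 2 rose in KO and 2 in Het, and none fell. Id2 rose in KO (1.21), as did Id3 (1.92, adjusted p = 0.00418), whose libraries ranged from 12.1 to 48.5 FPKM in WT and from 52.9 to 128 in KO. Id1 (0.90) and Id4 (0.56) rose in Het. Id4, 1 of the 2 counted there, passed the level filter only through its Het libraries. Its rise is therefore given as a value only.

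Of 20 hedgehog and fibroblast growth factor genes of the limb bud, 11 were tested, of which 6 rose and 4 fell in KO, and 3 rose and 2 fell in Het. Fgfr2 (1.67) and Fgfr1 (0.99) rose in KO, and Fgf7 (-1.07) and Fgfr3 (-0.97) fell. These genes changed in the same direction in Het: Fgfr2 by 1.47, Fgfr1 by 0.89, Fgf7 by -1.36 and Fgfr3 by -0.43. Of them, only Fgfr3 differed between KO and Het past the threshold (-0.54). Fgf7 passed the level filter only through its WT libraries, so that its falls are given as values only. Gli2, a transcription factor of the hedgehog pathway, rose in Het (1.52) and by less in KO (0.69). The signals that organise the limb bud itself, Shh and Fgf4, were listed at 0 in every library, and Fgf8 was at most 0.119 FPKM. Of 6 genes of the dorsoventral limb axis, the setting in which En1 acts, 2 were tested. Rspo2 rose in both genotypes (1.92 in KO and 1.15 in Het), and Wnt5a rose in KO (1.42). Wnt7a and Lmx1b, the dorsal genes opposed to En1 in the limb, were at most 0.523 FPKM in any library.

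For each tested member, the genes with the most similar profile over the 11 libraries were found among 9028 tested genes that averaged 5 FPKM or more in their highest group (Pearson's r of log2(FPKM + 1), given as a description, since the libraries share genotype). Nearest to Alx1 were Csrp1 and Prune2 (r = 0.996 for both), and Csrp1, for a LIM protein of the cytoskeleton, averaged 111 FPKM in WT, 135 in Het and 288 in KO. For Prrx1 they were Impact (0.996) and Serpina3f (0.995), for Shox2 Rnf150 and Nod1 (0.990 for both), and for En1 Rasl11a (0.985) and Bcorl1 (0.981). Rnf150 averaged 0.301 FPKM in WT, 9.95 in Het and 2.204 in KO. Msx2 was most like Smoc2, for a secreted matrix protein, and the imprinted noncoding RNA Rian (0.994 for both), which averaged 0.943 FPKM in WT, 15.3 in Het and 58.6 in KO. The genes most like Prrx2 were Fam65a (0.966) and Telo2 (0.957), which, like Prrx2, had similar group means: 21.7, 24.5 and 21.8 FPKM for the former and 8.18, 9.26 and 8.60 for the latter in WT, Het and KO.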

How the data were processed

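Poly(A) RNA libraries were made with a stranded kit, per the labels' protocols. The authors deposited FPKM with interval ends, for which the submitters' processing notes name TopHat2 2.1.0, Cufflinks 2.2.1, Cuffdiff (no version) and the build GRCm38.p4. The FPKM tables hold no read counts, so no count model was used, and the depth behind a value is known only as relative depth.

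Loci were joined by ID and position over 48892 loci, 31 symbols turned into dates in the WT 1 table were taken from the other tables, and FPKM were summed per symbol. Values were brought to a common scale with median-of-ratios factors (0.937 to 1.04, from 13981 genes). Genes with at least 1 FPKM in at least 3 libraries, 14948 in all, were fitted as log2(FPKM + 1) in limma 3.58.1 (R 4.3.3), fitting all 11 libraries at once, with separate group means and a trend of variance on level. This scale understates the change of low genes. P-values were adjusted by Benjamini and Hochberg over all tested genes, with a threshold of 0.05. "Rose" and "fell" are used of genes past it. The code was tested on simulated data. Exact permutation tests, two-sided and 24 in all with raw p-values, were run on single genes with scipy 1.17.1. Library GC trends were taken from GENCODE M21 transcripts, which matched 89.1% of tested genes.

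The 8 members and the gene lists were chosen with earlier results of these data known. Of each list, the genes named were up to 4 past the threshold with the largest change in KO and up to 2 in Het. Some of these genes and sequences are not reported here. En2, absent signals and cell type markers were named after their values were seen. Alternatives were other pseudocounts, scalings, filters and designs, a replicate block, and leaving out each library.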

Additional observations from a re-analysis of the deposited data

Results flagged for a closer look

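Msx1 in WT 4 stood apart from its group. It measured 0.395 FPKM, while the other 3 WT libraries were listed at 0, so the gap to the nearest library was the whole range of the group. Dixon's test was applied to 16 groups of 4 libraries, and chance alone flags about 1 in 20. With the other 3 libraries at 0, any value above 0 would give this gap. WT 4 was the deepest library, at 124% of WT 1, and its estimate had a deposited interval from 0.112 to 0.679 FPKM. WT 4 also had the highest deviation of high-GC genes, 0.51, and the Msx1 transcript has 59.6% GC (percentile 95.7). The part of depth and GC content in this value was not tested.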

How the results depend on the processing

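The sign of Prrx2 in KO against WT, 0.025 with an adjusted p of 0.949, was not stable: it was -0.069 without scaling, -0.038 with upper quartile scaling and -0.25 with the GC trend removed, and it ranged from -0.23 to 0.20 when single libraries were left out. Those below 0 were -0.23 without WT 1, -0.017 without WT 3, -0.033 without KO 3 and -0.041 without KO 4. None of these passed the threshold, and the cause was not tested. Asking for a 2-fold change on the log2(FPKM + 1) scale besides the adjusted p left 3 of the 5 members called in KO against WT, because Shox2 and En1 differ by less. Alx1, which had to differ because of the level filter, is among the 3. En1 in KO against WT was lost without KO 4, and Msx2 against the midpoint without Het 3. With the GC trend removed, an alternative chosen after seeing the data, Prrx2 passed in KO against Het and against the midpoint. No other tested member changed its side of the threshold or its direction under an alternative that was run. Without the filter on level, Alx4 was tested too and passed below WT in Het and in KO. Whether the replicate numbers mark pairs or batches of libraries was not settled. The correlation of deviations over same-numbered libraries ran from -0.10 to 0.35 over 10 pairings, and 5 were over 0.1. For number 4 it was 0.26 (WT and Het), 0.35 (WT and KO) and 0.25 (Het and KO). For number 3 it was -0.010, -0.048 and -0.094 in the same order. Not every library correlated best with its own number. With a replicate block, 5 members were called in each of the 4 comparisons, as without it. Permutation tests were not repeated with a library left out, since 3 against 4 libraries cannot go below 0.0571. Levels under 1 FPKM limit what can be said of Alx4 and Msx1.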
